A study of Homo sapiens with 6 samples.

Results

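The genes of respiratory complexes III, IV and V were described in AGS cells given an siRNA against RBM8A (siRBM8A) and in AGS cells given a control siRNA (siNC). AGS is an established human gastric adenocarcinoma line with a wild-type genotype per the labels. Each group held 3 libraries of polyadenylated RNA, called biological replicates by the labels, harvested 48 h after transfection with a lipid reagent. The labels do not give the siRNA sequences or how many siRNAs were used, and all 6 libraries came from 1 line. The members were the genes of the deposited table whose symbols begin with UQCR, COX or ATP5, without pseudogene names ending in P and digits. This gave 55 genes of 58735. The 9 UQCR genes were taken as complex III and the 20 ATP5 genes as complex V. Of the 26 COX genes, 17 were taken as complex IV subunits and 9 as COX assembly factors. The complex V group includes ATP5IF1, an inhibitor of the enzyme, and ATP5S, a factor that associates with it.

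Complexes III to V form the last stretch of the mitochondrial respiratory chain. Complex III, the cytochrome bc1 complex, passes electrons from ubiquinol to cytochrome c, and complex IV, cytochrome oxidase, passes them from cytochrome c to oxygen. Both pump protons across the inner membrane, and complex V, ATP synthase, uses the return of those protons to make ATP. Each complex joins subunits encoded in mitochondrial DNA with subunits encoded in the nucleus, and NRF1, ETS factors of the GABP type and YY1 are known activators of many of the nuclear genes. The protein made from RBM8A, Y14, belongs to the exon junction complex that marks where introns were removed from an mRNA.

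RBM8A itself was at 3.25, 2.23 and 3.38 FPKM in siRBM8A replicates 1, 2 and 3, against 15.3, 13.2 and 14.8 FPKM in siNC replicates 1, 2 and 3. FPKM are fragment counts scaled by exon length and library size, so levels of different genes can be compared per length. The groups did not overlap, and the mean in siRBM8A was 20.5% of that in siNC. On the log2 scale the difference was -1.97 with an SE of 0.142 and an adjusted p of 0.00544 in limma, and without siRBM8A replicate 3 the adjusted p was 0.0544. An exact permutation test, two-sided, gave p = 0.1, and groups of this size can give no smaller value.

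The libraries held 14838527 to 16561306 fragments assigned to genes. EPCAM, KRT8, KRT18 and KRT19, markers of epithelial cells, were high in every library, while CLDN18, a marker of gastric epithelium, was at 0.0759 to 0.232 FPKM. Of 9 markers of fibroblasts, leukocytes, endothelium and erythroid cells, 8 stayed under 1 FPKM in every library. The exception, COL1A1, was at 3.41 to 4.64 FPKM. The summed level of the 9 markers was 3.65 to 4.65 FPKM in siRBM8A and 3.70 to 4.84 FPKM in siNC. Replicate 2 of both groups stood apart from the other libraries along the GC content of the transcripts. Mitochondrially encoded genes took 18.2%, 13.0% and 18.9% of the summed FPKM in siRBM8A replicates 1, 2 and 3. In siNC replicates 1, 2 and 3 they took 21.1%, 17.3% and 20.3%. In bulk RNA such as this, fewer cells of a type and less RNA per cell cannot be told apart.

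The 2 members whose levels passed the test, ATP5F1A and UQCRFS1, are shown first by their promoter windows, beside ATP5PF and COX17, 2 members that were not called and whose windows hold motifs of the known activators. The windows run from 250 bases before to 50 bases after the RefSeq start of each gene in GRCh38.p14, 5′ to 3′ on the gene's strand. They lie on the minus strand at chr18:46104178-46104477 for ATP5F1A, chr19:29213102-29213401 for UQCRFS1, chr21:25735005-25735304 for ATP5PF and chr3:119677357-119677656 for COX17. Capitals mark the motif letters found.
ATP5F1A: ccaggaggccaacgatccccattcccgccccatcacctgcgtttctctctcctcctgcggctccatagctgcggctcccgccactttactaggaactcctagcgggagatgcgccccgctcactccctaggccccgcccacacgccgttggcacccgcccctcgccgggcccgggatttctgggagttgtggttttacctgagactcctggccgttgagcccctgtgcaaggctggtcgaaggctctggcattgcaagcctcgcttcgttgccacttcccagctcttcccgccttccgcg
UQCRFS1: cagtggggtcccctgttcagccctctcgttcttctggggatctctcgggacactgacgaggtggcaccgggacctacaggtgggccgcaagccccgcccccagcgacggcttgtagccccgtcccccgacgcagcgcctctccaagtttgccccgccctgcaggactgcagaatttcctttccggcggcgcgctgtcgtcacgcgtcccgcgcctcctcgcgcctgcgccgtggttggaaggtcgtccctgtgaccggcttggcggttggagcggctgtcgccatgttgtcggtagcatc
ATP5PF: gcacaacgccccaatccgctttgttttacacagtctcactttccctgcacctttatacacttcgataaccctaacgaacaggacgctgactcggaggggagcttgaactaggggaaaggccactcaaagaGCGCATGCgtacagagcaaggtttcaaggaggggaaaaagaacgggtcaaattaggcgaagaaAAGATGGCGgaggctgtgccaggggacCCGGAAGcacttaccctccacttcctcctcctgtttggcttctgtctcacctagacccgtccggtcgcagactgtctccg
COX17: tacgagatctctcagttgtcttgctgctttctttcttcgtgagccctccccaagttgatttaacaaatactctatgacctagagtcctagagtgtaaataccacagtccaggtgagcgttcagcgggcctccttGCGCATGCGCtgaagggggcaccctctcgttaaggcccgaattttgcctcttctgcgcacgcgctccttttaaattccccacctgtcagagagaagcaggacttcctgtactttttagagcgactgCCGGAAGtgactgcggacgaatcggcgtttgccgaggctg
The letters searched were GCATGCGC, the core of an NRF1 site, CCGGAAG, the core of an ETS site, and AAGATGGCG, the core of a YY1 site, each on either strand. None of the 3 was found in the ATP5F1A or the UQCRFS1 window. Only 1 RefSeq start per gene was read. The annotated gene interval of UQCRFS1 runs to chr19:29213541, upstream of its window on the minus strand, and that stretch was not searched. In the ATP5PF window the NRF1 core, the YY1 core and the ETS core began at -120, -57 and -30, counted with the start base as 0. In the COX17 window the NRF1 core was found on both strands, at -116 and -114, in 1 overlapping run, and the ETS core began at 10.

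Of the 55 members, 41 had a RefSeq window. The NRF1 core was in 8 of them (19.5%), against 3.27% of all 27305 windows of the same length. The ETS core was in 15 (36.6%), against 10.7% of all windows, and the YY1 core was in 3 (7.32%), against 1.85%. At least 1 of the 3 was in 19 member windows (46.3%) and in 14.6% of all windows. By role, the NRF1 core was in 0 of 7 windows of complex III, 2 of 14 of complex IV subunits, 2 of 8 of COX assembly factors and 4 of 12 of complex V. The median log2 fold change was -0.21 in the 8 tested members with the NRF1 core and -0.23 in the 30 without it. For the ETS core the medians were -0.18 in the 15 with it and -0.24 in the 23 without it, and for the YY1 core -0.00 in the 3 with it and -0.23 in the 35 without it. The set of all windows was not limited to genes expressed in these cells, while most member windows belong to tested genes. These are descriptions of letters in a window, with no test.

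The transcripts of the 3 complexes were slightly lower in siRBM8A cells as a group, and few of them passed the test one by one. Of the 55 members, 50 had a mean of at least 1 FPKM and were tested in the fit across all 12678 such genes. Of these 50, 2 fell in siRBM8A and 0 rose at an adjusted p under 0.05 (limma). In the same fit 5.59% of all tested genes were called, 3.19% as lower and 2.41% as higher, so the members' count of calls was near the background. Without adjustment, 17 members had p under 0.05 and a lower level in siRBM8A, and 1, COX19, a higher one. Of all 12678 tested genes, 1768 had such a p with a lower level and 1561 with a higher one. The log2 fold change, which is on the log2(FPKM + 1) scale, was negative for 43 of the 50 members (86.0%), against 51.4% of all tested genes. Its median was -0.25 over the members, with quartiles of -0.31 and -0.14, and -0.01 over all tested genes, with quartiles of -0.23 and 0.19. In linear terms, the mean FPKM in siRBM8A was 83.2% of that in siNC for the median member.

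**Figure D1:**
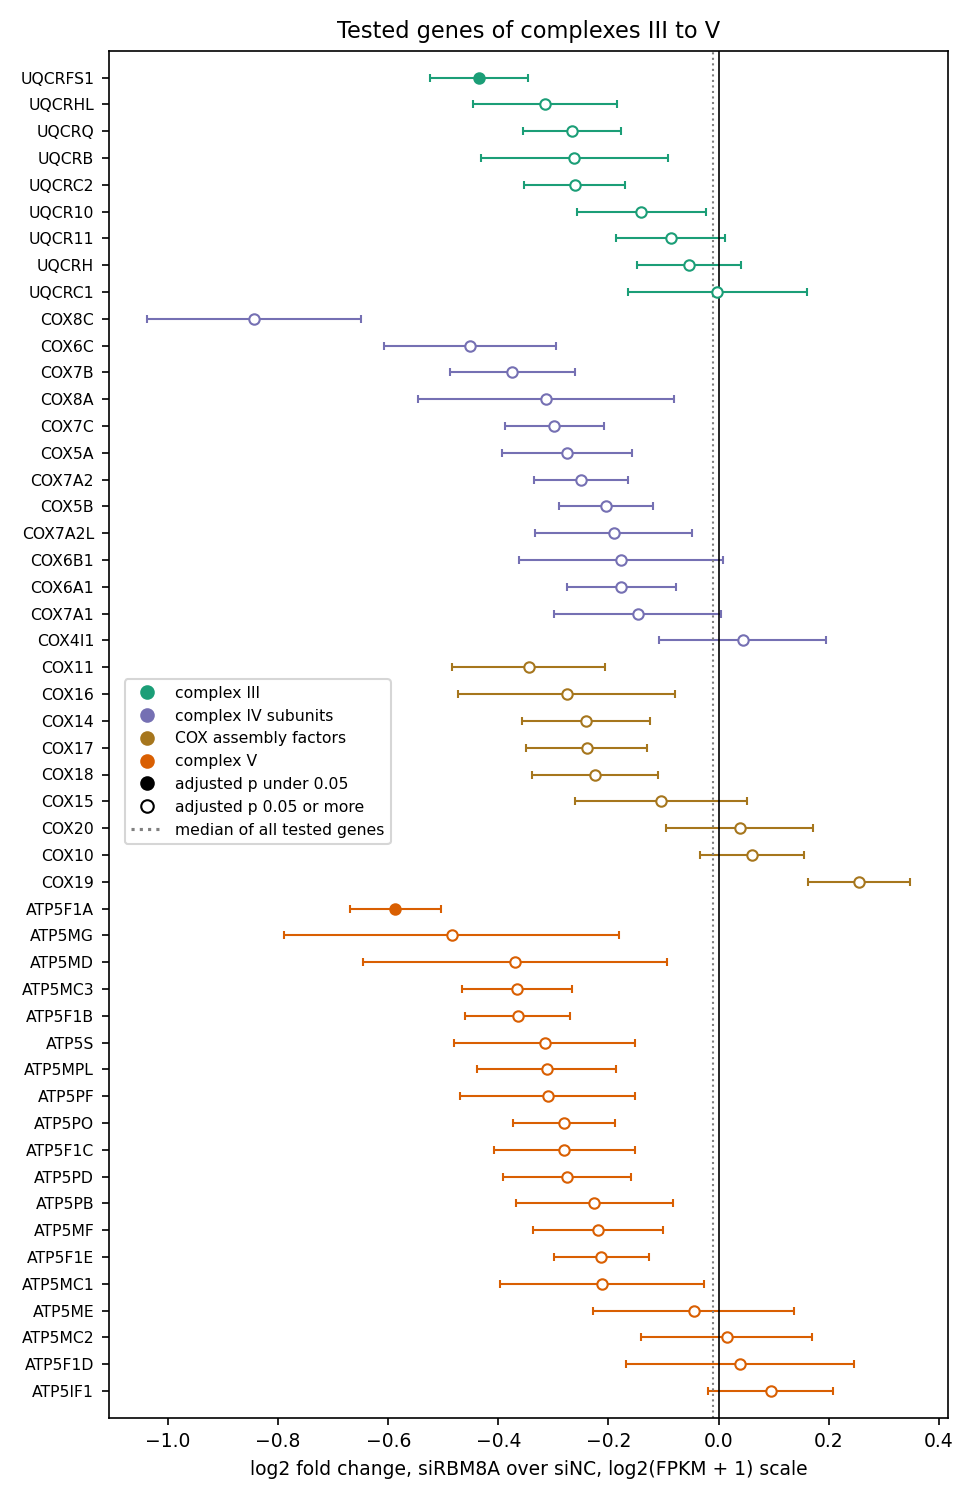
Log2 fold change of each of the 50 tested members, siRBM8A over siNC, with its SE, ordered within complex III, complex IV subunits, COX assembly factors and complex V. Filled points have an adjusted p under 0.05 in limma. Most points lie left of 0, and the 2 filled ones are ATP5F1A at -0.59 and UQCRFS1 at -0.44.

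The members' shift was alike in the pairs of libraries with the same replicate number. The median log2 difference over the members was -0.21 for replicates 1, -0.25 for replicates 2 and -0.25 for replicates 3, where the medians over all genes were -0.01, -0.02 and -0.00. In 21 of the 50 tested members all 3 siRBM8A libraries lay below all 3 siNC libraries, against 16.5% of all tested genes. The members and all tested genes are not alike in level, with a median of the mean FPKM of 23.8 and 6.63. Only COX19 among the tested members lay above without overlap, against 14.8% of all tested genes. Lower levels in siRBM8A in all 3 pairs were seen for 36 of the tested members, against 35.8% of all tested genes. Higher levels in all 3 pairs were seen for 2, COX10 and COX19, against 4108 of all 12678 tested genes. With the replicate number as a block in limma, 27 members fell and 1, COX19, rose, while 21.3% of all tested genes fell and 18.9% rose. The labels state no shared batch or day for a number, and the grounds for this pairing come from the data. The members took 0.434%, 0.441% and 0.436% of all fragments in siRBM8A, against 0.506%, 0.503% and 0.506% in siNC.

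**Figure D2:**
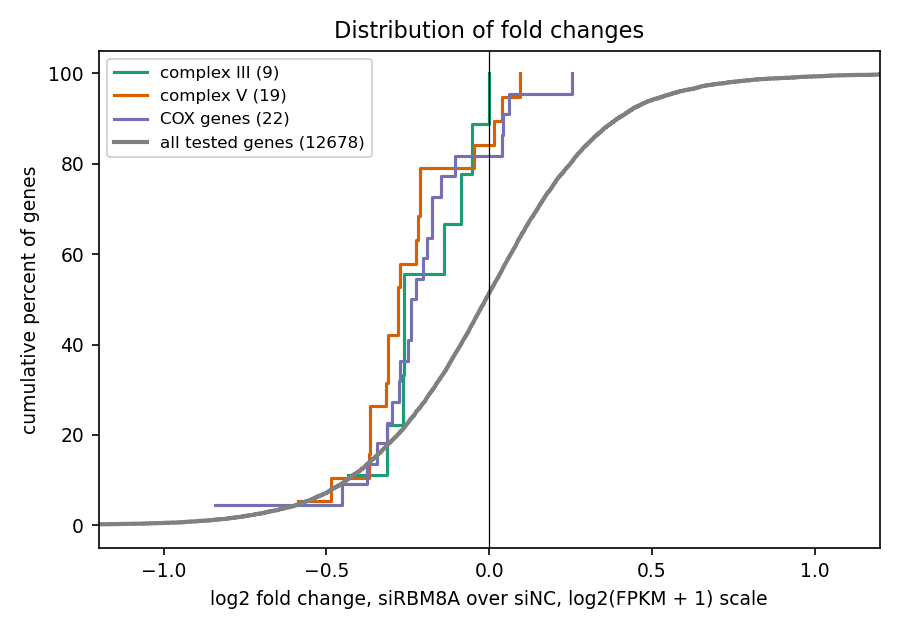
Cumulative percent of genes by log2 fold change, siRBM8A over siNC, for the tested genes of complex III (9), the COX genes (22), complex V (19) and all 12678 tested genes. The 3 curves of the members lie left of the curve of all genes over most of the range, with medians of -0.26, -0.23 and -0.28 against -0.01.

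The 9 complex III genes had log2 fold changes of -0.44 to -0.00, all of them negative, and 1 of them, UQCRFS1, was called. UQCRFS1 encodes the Rieske iron-sulfur protein, which takes the electron from ubiquinol, and lies on the minus strand at chr19:29205321-29213541 in GRCh38 with up to 2 exons. Its level was 36.2, 39.3 and 38.0 FPKM in siRBM8A, against 52.0, 53.2 and 49.4 FPKM in siNC. All siRBM8A libraries were under all siNC libraries, and replicate 2 was the highest of each group by a small margin. The means were 37.8 ± 1.56 FPKM in siRBM8A and 51.5 ± 1.92 FPKM in siNC (SD, n = 3 each), so UQCRFS1 fell to 73.5% of its siNC level. In limma UQCRFS1 had a log2 fold change of -0.44 with an SE of 0.0886 and an adjusted p of 0.0414, and of 0.0033 with the block. The call rested on few libraries: of the 6 fits that left out 1 library, only that without siRBM8A replicate 2 kept it. The adjusted p was 0.0772 without siRBM8A replicate 1, 0.175 without siRBM8A replicate 3, and 0.170, 0.0993 and 0.182 without siNC replicates 1, 2 and 3.

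UQCRQ, a small subunit near the ubiquinone site, was at 65.6, 69.5 and 71.9 FPKM in siRBM8A, against 82.6, 80.3 and 86.6 FPKM in siNC. Its groups did not overlap, but it was not called (log2 fold change -0.27, adjusted p = 0.125, limma, and 0.0094 with the block). A gene on the opposite strand overlaps 20.8% of its exon bases. UQCRC2, 1 of the 2 core proteins, was at 25.6, 23.8 and 24.4 FPKM in siRBM8A, against 31.6, 28.1 and 29.4 FPKM in siNC. It too was separated between the groups (log2 fold change -0.26, adjusted p = 0.136, limma), and it was called with the block, at 0.0090, and with the GC correction described below, at 0.0215. The other core protein, UQCRC1, was at 49.5, 68.7 and 47.9 FPKM in siRBM8A, against 54.1, 61.1 and 49.5 FPKM in siNC. Here the groups overlapped fully and replicate 2 was the highest library of each group (log2 fold change -0.00, SE 0.163). Leaving out siRBM8A replicate 2 made the log2 fold change -0.17, and leaving out siRBM8A replicate 3 made it 0.09.

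UQCRH, the acidic hinge protein between cytochrome c1 and cytochrome c, was the most abundant complex III member per length, with 28.3% of the summed complex III FPKM in siRBM8A and 26.2% in siNC. It was at 96.1, 106 and 109 FPKM in siRBM8A, against 106, 113 and 105 FPKM in siNC, and the groups overlapped (log2 fold change -0.05, adjusted p = 0.757, limma). UQCRHL, an intronless copy of UQCRH, was at 1.57, 1.72 and 1.78 FPKM in siRBM8A, against 1.90, 2.45 and 2.74 FPKM in siNC. Those groups did not overlap, but the gene was not called (log2 fold change -0.32, adjusted p = 0.185, limma). UQCRHL is 98.1% identical to UQCRH over 515 aligned bases, so its value is uncertain where reads could be assigned to either gene. It held 1.60% of the pair's FPKM in each siRBM8A library, against 1.77%, 2.12% and 2.55% in siNC replicates 1, 2 and 3. UQCR11, a small subunit at the edge of the complex, was at 8.95, 8.34 and 8.87 FPKM in siRBM8A, against 8.41, 10.1 and 9.57 FPKM in siNC, with overlap between the groups. UQCR10 and UQCRB, the remaining 2 members, had log2 fold changes of -0.14 and -0.26, and UQCRB was called as lower with the block only (adjusted p = 0.0142, limma). With the GC correction the log2 fold change of UQCRB was -0.06.

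Of the 17 complex IV subunit genes, 13 were tested, 12 of them had a negative log2 fold change and 0 were called (limma). Without adjustment 6 had p under 0.05, and with the block 8 fell. The median log2 fold change was -0.25. COX6C, a nuclear subunit of the membrane part, was at 24.1, 16.7 and 21.9 FPKM in siRBM8A, against 30.8, 25.1 and 30.3 FPKM in siNC. All siRBM8A libraries lay below all siNC libraries, with replicate 2 the lowest of each group. COX6C had a log2 fold change of -0.45 with an SE of 0.156, and an adjusted p of 0.131 without and 0.0046 with the block in limma. COX7B, another small membrane subunit, was at 19.8, 17.9 and 18.6 FPKM in siRBM8A, against 27.9, 22.0 and 24.3 FPKM in siNC. The groups were again apart (log2 fold change -0.37, adjusted p = 0.1003, and 0.0067 with the block, limma).

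COX7C, COX5A, COX7A2 and COX5B were all abundant and all had groups without overlap, with log2 fold changes of -0.30, -0.28, -0.25 and -0.20. None of the 4 was called in the limma fit without a block or correction, and each was with the block, at adjusted p from 0.0083 to 0.0180. COX5B was also called with the GC correction, at a log2 fold change of -0.26 (adjusted p = 0.0128, limma). With that correction COX7C, COX5A and COX7A2 had log2 fold changes of -0.11, -0.26 and -0.13, and none of these was called. Their SE were 0.153, 0.103 and 0.0855 with the correction, against 0.0903, 0.117 and 0.0853 without it. COX5B, which binds zinc on the matrix side, was at 78.3, 79.5 and 79.4 FPKM in siRBM8A, against 88.3, 95.8 and 89.8 FPKM in siNC. COX7A2, the widely expressed isoform of its subunit, was at 46.2, 45.0 and 48.0 FPKM in siRBM8A, against 55.5, 53.9 and 56.6 FPKM in siNC. The gap between the groups of COX7A2 was wider than the spread within either group. COX7C was at 85.8, 89.4 and 96.9 FPKM in siRBM8A, against 113, 110 and 111 FPKM in siNC.

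COX6B1, which faces the intermembrane space, was the most abundant complex IV member per length, at 141, 226 and 163 FPKM in siRBM8A, against 189, 221 and 180 FPKM in siNC. Replicate 2 was the highest library in each group, and the groups overlapped (log2 fold change -0.18, SE 0.185). COX4I1, the largest nuclear subunit, was at 54.8, 76.2 and 58.2 FPKM in siRBM8A, against 57.0, 68.5 and 56.8 FPKM in siNC. It was the only tested subunit with a positive log2 fold change, 0.04, and that turned to -0.01 when both replicate 2 libraries were left out. COX6A1, the isoform of non-muscle tissue, was at 25.3, 29.2 and 26.3 FPKM in siRBM8A, against 28.9, 30.7 and 32.1 FPKM in siNC, with an overlap of 1 library (log2 fold change -0.18). COX7A2L, known for joining complexes III and IV in supercomplexes, was at 11.5, 7.92 and 9.98 FPKM in siRBM8A, against 12.3, 10.8 and 10.7 FPKM in siNC, with overlap.

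Isoforms known from other tissues were low in these cells. COX6A2, the heart and skeletal muscle isoform, and COX7B2, a testis isoform, were listed at 0 in all 6 libraries, which allows up to 0.365 and 0.245 FPKM at 3 fragments per library. COX4I2, the lung isoform, had 1 fragment in siRBM8A and 0 in siNC. COX6B2, a testis isoform, was at 0.185, 0.194 and 0.207 FPKM in siRBM8A, against 0.441, 0.592 and 0.235 FPKM in siNC, and was too low to be tested. COX7A1, the muscle isoform, was at 1.46, 1.84 and 1.83 FPKM in siRBM8A, against 1.49, 2.31 and 2.26 FPKM in siNC. It took 3.56% ± 0.438 of the COX7A1 and COX7A2 FPKM in siRBM8A and 3.52% ± 0.790 in siNC (SD, n = 3 each), a difference smaller than the spread between libraries.

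COX8C, known as a testis isoform, had the lowest log2 fold change of all members, -0.84 (SE 0.195), and missed the threshold (adjusted p = 0.0554, limma; 0.0163 with the block). It was at 0.884, 0.925 and 1.23 FPKM in siRBM8A, against 2.03, 3.76 and 2.24 FPKM in siNC, without overlap. These levels rested on 8, 8 and 10 fragments in siRBM8A and 18, 32 and 20 fragments in siNC, so counting error alone is large. COX8A, the common isoform, was at 70.0, 113 and 78.6 FPKM in siRBM8A, against 83.0, 135 and 108 FPKM in siNC. Its libraries with the same number moved together, replicate 2 being highest in both groups, and the groups overlapped. COX8A had a log2 fold change of -0.31 and an adjusted p of 0.435, and it was called as lower with the block, at 0.0118, and with the GC correction, at 0.0401 (limma). Another gene on the same strand overlaps 34.5% of its exon bases, so its value is uncertain.

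The 9 COX assembly factors, which deliver copper and heme or guide subunits into cytochrome oxidase, were all tested and 0 were called (limma). Of these 9, 6 had a negative and 3 a positive log2 fold change, with a median of -0.22. COX11, which helps to build the CuB centre, was at 3.85, 2.56 and 3.03 FPKM in siRBM8A, against 4.61, 3.84 and 4.25 FPKM in siNC. The groups touched at siRBM8A replicate 1 and siNC replicate 2, and COX11 was called as lower only with the block (log2 fold change -0.34, adjusted p = 0.177, and 0.0215 with the block, limma). COX14, which acts early on the mitochondrially made COX1 subunit, was at 17.4, 20.6 and 20.9 FPKM in siRBM8A, against 22.9, 25.8 and 21.5 FPKM in siNC. It was the most abundant factor per length, and its groups were apart by a narrow gap (log2 fold change -0.24, adjusted p = 0.243, and 0.0139 with the GC correction, limma). COX17, the copper chaperone whose promoter window is shown above, was at 7.27, 9.31 and 8.27 FPKM in siRBM8A, against 10.2, 9.41 and 10.1 FPKM in siNC.

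COX19, a copper-handling protein of the intermembrane space, was the only member separated in the other direction. It was at 6.83, 6.53 and 6.65 FPKM in siRBM8A, against 5.90, 5.33 and 5.07 FPKM in siNC. Every siRBM8A library lay above every siNC library (log2 fold change 0.26, SE 0.0927, adjusted p = 0.144, limma), and with the block COX19 was called as higher (adjusted p = 0.0249). Of the exon bases of COX19, 21.4% overlap ADAP1 on the same strand, so its value is uncertain. COX10, the farnesyltransferase that starts heme A synthesis, was at 7.13, 7.56 and 8.19 FPKM in siRBM8A, against 7.11, 7.02 and 7.68 FPKM in siNC, with overlap and a log2 fold change of 0.06. COX20, a chaperone of the COX2 subunit, was at 1.08, 1.13 and 1.03 FPKM in siRBM8A, against 0.816, 1.04 and 1.23 FPKM in siNC. Its exons share 72.0% of their bases with HNRNPU, which runs on the other strand, so its value is uncertain. COX16, which helps copper reach the COX2 subunit, was at 1.36, 0.562 and 1.27 FPKM in siRBM8A, against 1.74, 1.51 and 1.16 FPKM in siNC, with overlap. COX15 and COX18 had log2 fold changes of -0.11 and -0.22 and were called in neither fit. Genes of the same strand overlap 25.6% of the exon bases of COX15 and 36.0% of those of COX16.

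Complex V held the largest share of blocked calls among the groups, 14 of its 19 tested genes, and 1 call without the block. Of the 19, 16 had a negative log2 fold change, and the median was -0.28. ATP5F1A encodes the alpha subunit of the catalytic head and lies on the minus strand at chr18:46080248-46104334 in GRCh38, with up to 13 exons. Its level was 16.0, 16.6 and 16.1 FPKM in siRBM8A, against 25.2, 25.2 and 24.4 FPKM in siNC. The gap between the groups was much wider than the spread within either. The means were 16.3 ± 0.332 FPKM in siRBM8A and 24.9 ± 0.464 FPKM in siNC (SD, n = 3 each), so ATP5F1A fell to 65.2% of its siNC level. In limma ATP5F1A had a log2 fold change of -0.59 with an SE of 0.0833 and an adjusted p of 0.0173, and of 0.0017 with the block. The call was kept without siRBM8A replicate 1 or 2 and lost without siRBM8A replicate 3 (adjusted p = 0.123) and without siNC replicate 1, 2 or 3 (adjusted p = 0.0971, 0.0625 and 0.124, limma).

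ATP5F1B, the beta subunit that carries the catalytic sites, was the most abundant member of the 3 complexes per length. It was at 221, 250 and 236 FPKM in siRBM8A, against 290, 323 and 299 FPKM in siNC. The groups did not overlap and differed by more than the spread within either, with means of 236 ± 14.4 FPKM in siRBM8A and 304 ± 17.2 FPKM in siNC (SD, n = 3 each). The log2 fold change was -0.37 (SE 0.0954), the adjusted p 0.0717, and 0.0035 with the block (limma). Per length here means the union of annotated exons, 2322 bases for ATP5F1B and 10908 bases for ATP5F1A, so the order of such levels depends on the annotation. The gamma subunit gene of the central stalk, ATP5F1C, had a log2 fold change of -0.28 (adjusted p = 0.220, limma) and was called as lower with the block, at 0.0117, and with the GC correction, at 0.0372. ATP5F1E, for the epsilon subunit, had a log2 fold change of -0.21 (adjusted p = 0.176, and 0.0172 with the block, limma), but 23.2% of its exon bases overlap a gene on the opposite strand. With the GC correction the log2 fold change of ATP5F1E was -0.02, but its SE was then 0.171, against 0.0859 without the correction. ATP5F1D, for the delta subunit of the central stalk, was at 53.2, 86.0 and 54.6 FPKM in siRBM8A, against 57.7, 72.0 and 55.4 FPKM in siNC. Replicate 2 was far above the other libraries in each group, and the log2 fold change of 0.04 became -0.07 when both replicate 2 libraries were left out.

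**Figure D3:**
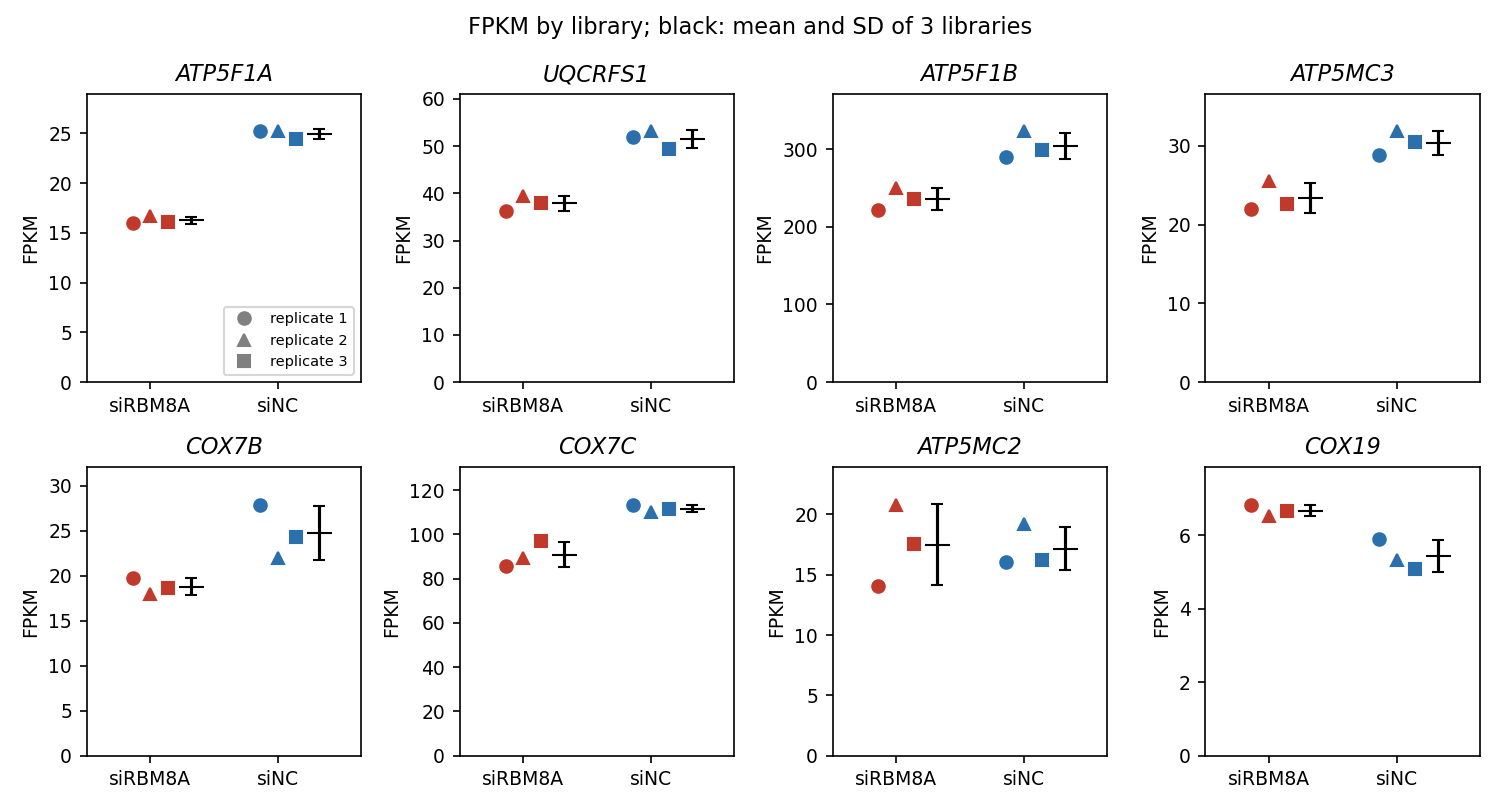
FPKM of 8 members in each library, siRBM8A left and siNC right, on axes that start at 0. Symbols mark the replicate number, and black bars give the mean and SD of 3 libraries. In ATP5F1A, UQCRFS1, ATP5F1B, ATP5MC3, COX7B and COX7C the siRBM8A libraries all lie below the siNC libraries, in ATP5MC2 they overlap and in COX19 they all lie above.

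The c subunit of the rotor ring is encoded by 3 genes that differ in their import sequence and give the same mature protein. ATP5MC3 was at 22.0, 25.5 and 22.6 FPKM in siRBM8A, against 28.9, 31.9 and 30.4 FPKM in siNC, without overlap (log2 fold change -0.37, adjusted p = 0.0783, and 0.0045 with the block, limma). ATP5MC1 was at 17.6, 26.2 and 19.6 FPKM in siRBM8A, against 20.4, 29.4 and 23.8 FPKM in siNC, lower in each pair of replicate numbers but with overlap. It was called as lower with the block only (log2 fold change -0.21, adjusted p = 0.511, and 0.0210 with the block, limma). ATP5MC2 was at 14.1, 20.8 and 17.6 FPKM in siRBM8A, against 16.0, 19.2 and 16.2 FPKM in siNC, with full overlap (log2 fold change 0.01). As a share of the 3 genes' FPKM, ATP5MC2 took 26.2%, 28.7% and 29.4% in siRBM8A, against 24.6%, 23.9% and 23.0% in siNC, with no overlap between the groups. ATP5MC3 took 38.0% ± 2.89 in siRBM8A and 42.3% ± 2.40 in siNC, and ATP5MC1 33.9% ± 1.92 in siRBM8A and 33.9% ± 2.62 in siNC (SD, n = 3 each). The shares of these 2 genes overlapped between the groups. No test was run on the shares.

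The members of the peripheral stalk, ATP5PB, ATP5PD, ATP5PF and ATP5PO, which hold the head still, all had negative log2 fold changes, of -0.23 to -0.31. None was called without the block and all 4 were called as lower with it, at adjusted p from 0.0090 to 0.0304 (limma). The groups of ATP5PD and ATP5PO did not overlap. Of the exon bases of ATP5PF, 23.1% also lie in genes of the other strand. Of the small membrane subunits, ATP5MD was at 75.0, 42.0 and 66.9 FPKM in siRBM8A, against 95.4, 55.4 and 87.0 FPKM in siNC. Replicate 2 was lowest in both groups, so that the groups overlapped although each pair of replicate numbers was lower in siRBM8A. Its log2 fold change was -0.37 (SE 0.276, adjusted p = 0.437, and 0.0033 with the block, limma). Leaving out siRBM8A replicate 2 made it -0.12. Leaving out replicate 1 or 2 of siNC made it -0.22 or -0.61. ATP5MG, the g subunit, was at 5.54, 1.95 and 4.55 FPKM in siRBM8A, against 6.77, 4.36 and 6.05 FPKM in siNC, with the same dip in replicate 2. ATP5MG had a log2 fold change of -0.49 (SE 0.305, adjusted p = 0.361, and 0.0362 with the block, limma), and of -0.14 without siRBM8A replicate 2.

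ATP5MF and ATP5MPL, 2 more small subunits, had log2 fold changes of -0.22 and -0.31. Neither was called in the fit without a block or correction. With the block their adjusted p were 0.0140 and 0.0076, and with the GC correction 0.0265 and 0.0221 (limma). ATP5ME had a log2 fold change of -0.05, with 61.6% of its exon bases overlapped by a gene on the opposite strand. ATP5S, a factor that associates with the enzyme, had a log2 fold change of -0.32 and was called in neither fit. Genes on the opposite strand overlap 20.1% of its exon bases. ATP5IF1, the natural inhibitor of ATP hydrolysis by the enzyme, had the highest log2 fold change in the complex, 0.09 (adjusted p = 0.637, limma). Its level was 39.1, 47.1 and 41.4 FPKM in siRBM8A, against 36.0, 41.7 and 41.5 FPKM in siNC, so the groups overlapped. ATP5MGL, a copy of ATP5MG with 93.2% identity over 473 aligned bases, had 4 fragments in siRBM8A and 3 in siNC, too few to test.

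Summed over its genes, each complex was lower in siRBM8A. Complex V summed to 723, 753 and 740 FPKM in siRBM8A, against 875, 890 and 896 FPKM in siNC, which is 83.2%, with no overlap and a narrow spread. Complex III summed to 345, 389 and 366 FPKM in siRBM8A, against 409, 424 and 403 FPKM in siNC, which is 89.0%, also without overlap. The complex IV subunits summed to 632, 793 and 677 FPKM in siRBM8A, against 780, 881 and 797 FPKM in siNC. That is 85.5%, and siRBM8A replicate 2 lay above siNC replicate 1. The COX assembly factors summed to 54.1, 54.4 and 57.4 FPKM in siRBM8A, against 62.5, 61.9 and 59.9 FPKM in siNC, which is 90.1%, without overlap. No test was run on the sums.

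**Figure D4:**
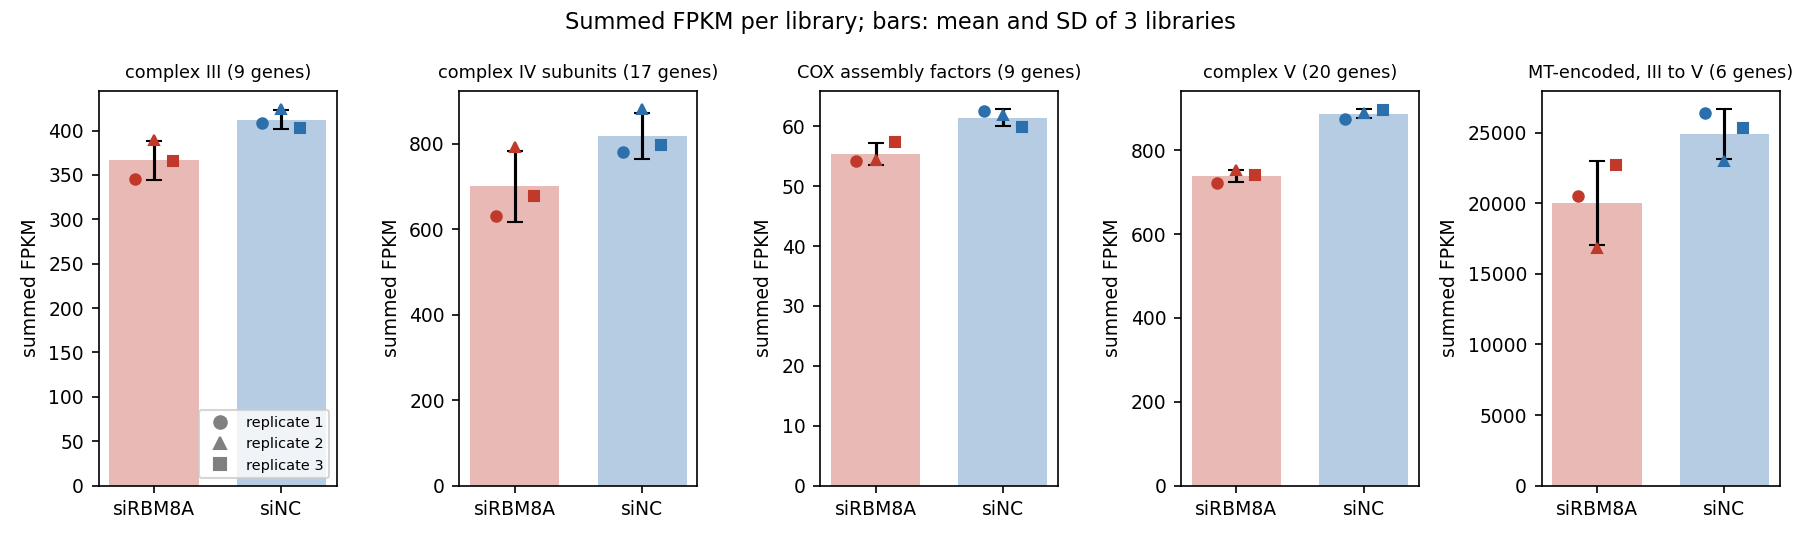
Summed FPKM per library for complex III, complex IV subunits, COX assembly factors, complex V and the 6 mitochondrially encoded subunits, siRBM8A left and siNC right, with bars for the mean and SD of 3 libraries. Complex V shows the narrowest spread beside its gap, 738 ± 15.0 FPKM in siRBM8A and 887 ± 10.6 FPKM in siNC.

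Part of the spread among libraries of 1 group followed the base composition of the members. The deviation of replicate 2 from the mean of replicates 1 and 3 correlated with GC content across the 50 tested members at a Pearson r of 0.566 in siRBM8A and 0.558 in siNC. Among members rich in GC, ATP5F1D, COX6B1 and COX8A were high in replicate 2. Among members poor in GC, ATP5MG and COX6C were low in it, but not every member followed this pattern. ATP5F1E and ATP5MC3, also poor in GC at 38.7% and 41.0%, deviated by 0.04 and 0.19 in siRBM8A and 0.08 and 0.10 in siNC. ATP5MD, at 47.2% GC, deviated by -0.74 in siRBM8A and -0.71 in siNC. The log2 fold change itself correlated with GC content at 0.359 across the same members. All members share the same 6 libraries, so these correlations are descriptions. With a loess curve on GC content subtracted from each library, 13 members fell and 0 rose, against 16.2% of all tested genes called as lower in that fit. As higher, 2024 of the 12678 tested genes were called in it. The median log2 fold change of the members was then -0.18, against 0.01 over all tested genes. This correction was chosen after seeing the data, and it would take away a true difference that tracks base composition as well. The 13 were UQCRFS1, UQCRQ and UQCRC2 of complex III, COX5B, COX6C, COX8A and COX8C of the complex IV subunits, the factor COX14, and ATP5F1A, ATP5F1B, ATP5F1C, ATP5MF and ATP5MPL of complex V.

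**Figure D5:**
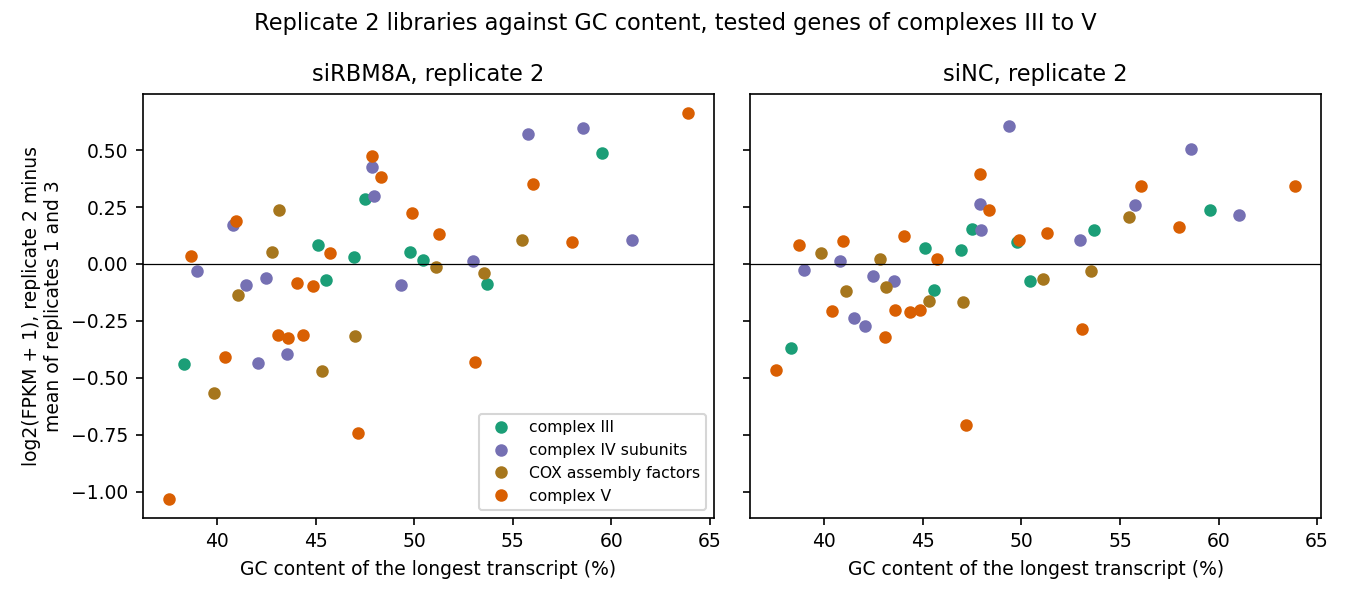
Deviation of replicate 2 from the mean of replicates 1 and 3 on the log2(FPKM + 1) scale against the GC content of the longest transcript, 1 point per tested member, siRBM8A left and siNC right. In both panels the points climb with GC content, with Pearson r of 0.566 and 0.558.

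Genes of the same chain outside the 3 symbol families gave a mixed picture. The 6 mitochondrially encoded subunits of complexes III to V all had negative log2 fold changes, with a median of -0.41. Their count of calls was 0 without the block (3 had an unadjusted p under 0.05) and 4 with it (limma). MT-CYB, the cytochrome b of complex III, was at 1157, 997 and 1386 FPKM in siRBM8A, against 1747, 1610 and 1632 FPKM in siNC, without overlap (log2 fold change -0.51, adjusted p = 0.0718, and 0.0137 with the block, limma). Mitochondrially encoded genes as a whole took a smaller share of the FPKM in siRBM8A than in siNC for each replicate number, as given above. The share was smallest in siRBM8A replicate 2, and the part of this in the result was not tested. CYCS, cytochrome c, was at 24.3, 11.9 and 18.4 FPKM in siRBM8A, against 30.4, 19.6 and 28.8 FPKM in siNC, with overlap (log2 fold change -0.54, adjusted p = 0.263, and 0.0074 with the block, limma). CYC1, the cytochrome c1 of complex III, was at 53.8, 85.8 and 68.3 FPKM in siRBM8A, against 68.1, 95.3 and 75.7 FPKM in siNC, with overlap. Its adjusted p was 0.547, with calls as lower at 0.0329 with the block and 0.00788 with the GC correction (limma).

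Among 28 tested assembly factors of complexes III to V with other names, 1 rose and 0 fell, and the median log2 fold change was -0.01. The 1 was UQCC1, which aids the synthesis of cytochrome b, at 13.4, 12.9 and 12.6 FPKM in siRBM8A, against 9.39, 9.75 and 9.60 FPKM in siNC. The groups were well apart (log2 fold change 0.40, adjusted p = 0.0446, limma). With the block 6 of the 28 rose and 5 fell. The complex I list was drawn by symbol, and beside subunits it holds the NDUFAF assembly factors and NDUFA4. Its median on the log2 scale was -0.11, and of its 44 tested genes 0 rose and 4 fell. The 3 of these with the smallest adjusted p were NDUFS1, an electron-carrying subunit (-0.67, adjusted p = 0.0214), NDUFB3 (-0.73, adjusted p = 0.0361) and NDUFB4 (-0.59, adjusted p = 0.0425, limma), the last pair being accessory subunits of the membrane arm. The fourth was NDUFB2. With the block 17 genes of this list fell, the factor NDUFAF2 among them, and 5 rose, with the factors NDUFAF3 and NDUFAF5 among those.

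Among the 8 complex II genes and assembly factors 0 were called, with 1 gene on either side at an unadjusted p under 0.05, and the median was -0.12. With the block 2 of these fell and 1 rose. Of 10 tested regulators of respiratory genes 0 were called, and 6 had a negative log2 fold change. The 3 with an unadjusted p under 0.05 (limma), NRF1, PPRC1 and YY1, were higher in siRBM8A without overlap between the groups. GABPA was not among these 3 and had a log2 fold change of -0.06. With the block 3 regulators rose and 2 fell. The mitochondrial ribosomal proteins (76 tested) and the cytosolic ribosomal proteins (77 tested), 2 other groups of abundant transcripts, also had 0 calls in limma. At an unadjusted p under 0.05 the first list had 4 genes higher and 8 lower, and the second had 4 higher and 4 lower. With the block the first had 8 genes that rose and 18 that fell, and the second 14 that rose and 9 that fell. Their median log2 fold changes were -0.07 and 0.02, where the members of complexes III to V had -0.25. These lists are set side by side by their counts and medians, and the difference between them was not tested.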

How the data were processed

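Polyadenylated RNA of 6 AGS libraries, 3 given siRBM8A and 3 given siNC, was sequenced, per the labels' protocols. The deposited values were FPKM per gene, made by the authors. HISAT2, StringTie and GRCh38 are named in the submitters' processing notes; their roles and versions, any filters and the strand setting are not stated in those sources. Groups and replicate numbers came from the titles.

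All 58735 gene IDs matched GENCODE 29. FPKM times exon length came out as whole fragments for 100% of values above 0 (tolerance 0.001 fragments), which gave the depth. Intervals and floors at 3 fragments cover counting error only. The comparison used limma 3.58.1 (R 4.3.3) with a variance trend on log2(FPKM + 1), for genes that averaged 1 FPKM or more. Tests were two-sided with Benjamini-Hochberg adjustment over all tested genes, and an adjusted p under 0.05 made a call. The scale understates the change of low genes. Libraries of a group differed beyond sampling noise, with a chi-square per degree of freedom of 4.29 to 54.6. The p-values measure only the spread between these libraries.

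Same-numbered libraries deviated together from their group means, with correlations across genes of 0.507, 0.663 and 0.102 for replicate numbers 1, 2 and 3. Each exceeded 0.1, so the numbers were taken to pair the libraries. The match is weak for number 3, since libraries of unlike number reached higher values, 0.258 between siRBM8A 1 and siNC 3 and 0.187 between siRBM8A 3 and siNC 1. No label names a shared batch or day for a number, so the pairing rests on the data. The blocked adjusted p come from the same values that led to the block, so they may be too small. Blocked values or counts are given where the block changes a call or a count.

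Alternatives covered the pseudocount, the filter, scaling, the variance trend, the block and leaving out each library. The GC correction (loess, span 0.3), the fit without both replicate 2 libraries and limma-voom on the recovered fragments were added after seeing the data. The members, the lists and the rule for named genes were chosen with earlier results of these data known. Named were the called members, the 3 highest and the 3 lowest of each group by log2 fold change, its most abundant member and the isoform families. COX5B, COX7C, UQCRC2 and COX17 were given in every library after their values were seen. From the other lists, up to 3 called genes each, CYC1 and CYCS were named. MT-CYB and the named regulators were added after their values were seen. Promoter windows and their motifs were read from RefSeq, GRCh38.p14, with Python 3.11.15 and pandas 2.3.3. Plots used matplotlib 3.10.9.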

Additional observations from a re-analysis of the deposited data

How the results depend on the processing

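Depth limits the members at low levels, such as COX8C, COX20, ATP5S and UQCRHL. With 3 libraries per group, the calls in limma moved with single libraries. The count of members called as lower, 2, was 0 to 2 over the fits that left out 1 library each. It was 0 without siRBM8A replicate 3 or any 1 siNC library, and 1 without siRBM8A replicate 1. The calls of complex III and of complex V each ranged from 0 to 1 in those fits, those of complex IV stayed at 0 and the median log2 fold change of the members from -0.26 to -0.22. Over all genes, calls were 2 to 259 higher and 0 to 369 lower, where all libraries gave 305 and 404. The fewest, 2 and 0, came without siRBM8A replicate 3. Without siNC replicate 1, 2 or 3 they were 7 and 5, 69 and 63, and 6 and 2, and without siRBM8A replicate 1 they were 182 and 216.

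A pseudocount of 0.1 gave 1 complex IV call. With no filter on low values, 119 genes were called higher and 149 lower, with 1 member lower, 0 of complex III, and UQCRFS1 at an adjusted p of 0.0625. With libraries scaled to equal FPKM sums 468 genes were called higher, and the median of the members was -0.20. Equal sums without the mitochondrially encoded genes gave 5 members lower, 1 of complex IV and 3 of complex V. The replicate block gave 27 members lower and 1 higher, 4, 10 and 14 called in complexes III, IV and V, and 2392 genes higher and 2704 lower. The GC correction gave 13 members lower, 3, 5 and 5 in the complexes, 2024 genes higher and 2053 lower, and a median of -0.18. The GC correction with the block gave 23 members lower and 1 higher, 3, 11 and 10 in the complexes, 2577 genes higher and 2615 lower, and the same median of -0.18. Without both replicate 2 libraries, 7 members were lower, 3 of complex IV and 3 of complex V, with 823 genes higher and 1004 lower. On the recovered fragments, limma-voom gave 559 genes higher. With the block it gave 29 members lower and 1 higher, 4, 11 and 15 in the complexes, and 3219 genes higher and 2926 lower. The cause of these moves was not tested. The median stayed negative in every fit run.

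A log2 fold change that turned its sign belonged in each case to an uncalled member near 0. ATP5F1D was at -0.12 with the GC correction with or without the block, at -0.0682 without both replicate 2 libraries and at -0.183 to 0.158 when 1 library was left out. ATP5MC2 was at -0.0332 without both replicate 2 libraries and at -0.113 to 0.153 with 1 library left out. COX4I1 was at -0.0101 without both replicate 2 libraries and at -0.0983 to 0.136 with 1 library left out. UQCRC1 was at 0.0430 with equal sums, 0.00922 with median centring, 0.0310 with limma-voom, 0.0341 with limma-voom and the block, and -0.165 to 0.0914 with 1 library left out. With 1 library left out, COX20 was at -0.0396 to 0.109 and UQCRH at -0.0916 to 0.000579. Over all settings COX15 was at -0.229 to 0.0516 and ATP5ME at -0.217 to 0.0687, each above 0 only in fits that left out 1 library.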
